A study of Mus musculus with 6 samples.

Results

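The genes described here encode the machinery by which cells show peptides to T cells, namely the major histocompatibility complex (MHC) class I and class II molecules of the mouse, named H2-, together with the peptide loading factors and the immunoproteasome. Members were the probe sets whose only gene symbol in the platform annotation starts with H2- or is one of 12 named genes, and the rule itself refers to no measured value. The rule found 55 probe sets of 32 genes, among 22626 probe sets tested and 12393 genes read by a probe set of a single symbol. Class I gave 27 probe sets of 14 genes, class II 15 of 9 genes, peptide loading 8 of 4 genes and the immunoproteasome 4 of 4 genes. The remaining probe set, of H2-Ke6, lies in the same region of the chromosome but reads an enzyme of steroid and fatty acid metabolism, and was kept out of the class counts. A further 15 probe sets carry a member symbol beside other symbols and were set aside, among them the only probe set of Psme2. Of the 32 genes, 26 lie on chromosome 17.

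Total RNA of skeletal muscle from 6 wild-type C57BL/6 mice was measured on Affymetrix expression arrays, with 1 array per mouse. In 3 mice the muscle had been injected with an adeno-associated virus (AAV) carrying murine Tfeb, also called Tcfeb, and in 3 other mice with an AAV carrying green fluorescent protein (GFP), so that all 6 muscles had received a virus. The labels put the mice at 1 month of age. The study calls them adult and places both cDNAs behind the CMV promoter, which is not restricted to muscle fibres. Values are log2 signals per probe set, and a difference of 1 on this scale is a 2-fold difference.

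The only probe set of Tfeb itself did not follow the labels. It read 7.92, 7.68 and 7.61 in the 3 arrays labelled as TFEB-injected, against 8.49, 8.47 and 8.58 in the 3 labelled as GFP-injected, and limma put the difference at -0.77 ± 0.097 (SE, adjusted p = 0.0024). The position of its probes relative to the delivered cDNA is not stated in the labels or the study, so whether it can read the transgene is unknown. The arrays are therefore called TFEB-labelled and GFP-labelled, and every direction below rests on the labels. The muscle fibre markers were near the top of the scale in every array, and the 8 of them averaged 13.91 to 13.94 in the TFEB-labelled arrays and 13.91 to 13.96 in the GFP-labelled arrays.

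A single control array, GFP-labelled replicate 2, stood apart. Between GFP-labelled replicates 1 and 3 there were 87 probe sets over 2-fold apart, compared with 844 and 725 between replicate 2 and each of them, and 45 to 101 between pairs of TFEB-labelled arrays. The 3′ minus 5′ difference of the beta-actin probe sets, a sign of RNA quality, was 0.22 to 0.34 in the TFEB-labelled arrays and 0.037 to 0.077 in the GFP-labelled arrays, so replicate 2 did not stand apart in it. The fold changes of the members described singly are therefore given with all 6 arrays and without GFP-labelled replicate 2. That array was picked from these same data, and without it the controls are replicates 1 and 3 alone. The adjusted p values of that fit do not allow for this choice. The cause of the difference of GFP-labelled replicate 2 was not tested.

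In class I presentation, proteins are cut by the proteasome, in which immune cells and cells exposed to interferon replace the standard catalytic subunits by the immunoproteasome subunits. The peptides are carried into the endoplasmic reticulum by the TAP transporter and loaded onto a class I heavy chain paired with beta-2-microglobulin, and the complex is shown on nearly all nucleated cells. Class II molecules instead present peptides of endosomal and lysosomal origin, and are made mainly by macrophages, dendritic cells and B cells under the control of the coactivator CIITA. Resting muscle fibres are known for little class I and no class II on their surface. TFEB is a master regulator of lysosomal genes and binds the E-box motif CACGTG.

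With all 6 arrays, 0 of the 55 member probe sets were called higher in the TFEB-labelled arrays (limma, adjusted p under 0.05 and at least 1.5-fold), while 7.51% of all probe sets were. Only H2-DMb2 was called lower, 1 of 55, against 6.11% of all probe sets. At an unadjusted p under 0.05 limma gave 1 member higher and 2 lower, and the test named among the study's statistics gave the same counts. The shares of all probe sets at this limit were not counted. Without GFP-labelled replicate 2, 23 of the 55 probe sets (41.8%) were called higher, where 10.7% of all probe sets were, and H2-DMb2 was again the only member called lower, where 7.93% of all were. These 23 probe sets read 14 genes, 5 of class I, 5 of class II, Tap1, Tapbp, Psmb8 and Psmb9. The array left out was over 2-fold above the mean of the other controls for 58.2% of members and 3.15% of all probe sets. The shares called without it therefore depend on that choice of array. In bulk muscle, fewer or more cells of a type and less or more RNA per cell cannot be told apart.

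The arrays fell into 3 levels for most of the brightly read members. The 3 TFEB-labelled arrays lay in the middle, with GFP-labelled replicate 2 above them and GFP-labelled replicates 1 and 3 below. All 3 TFEB-labelled arrays lay above GFP-labelled replicates 1 and 3 for 34 of the 55 probe sets (61.8%), an arrangement found for 26.7% of all probe sets. GFP-labelled replicate 2 was the highest of the 6 arrays for 39 of the 55 (70.9%), compared with 13.1% of all probe sets. It exceeded the mean of replicates 1 and 3 by over 2-fold for 32 of the 55 (58.2%), compared with 3.15% of all. The groups overlapped for 49 of the 55 members with all arrays and for 15 without GFP-labelled replicate 2. Leaving out a control can only lower such a count, and overlaps over all probe sets were not counted. The TFEB-labelled arrays lay wholly above the GFP-labelled ones for 1 member, H2-Ke6 (20.1% of all probe sets), and wholly below them for 5 (29.7% of all).

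**Figure D1:**
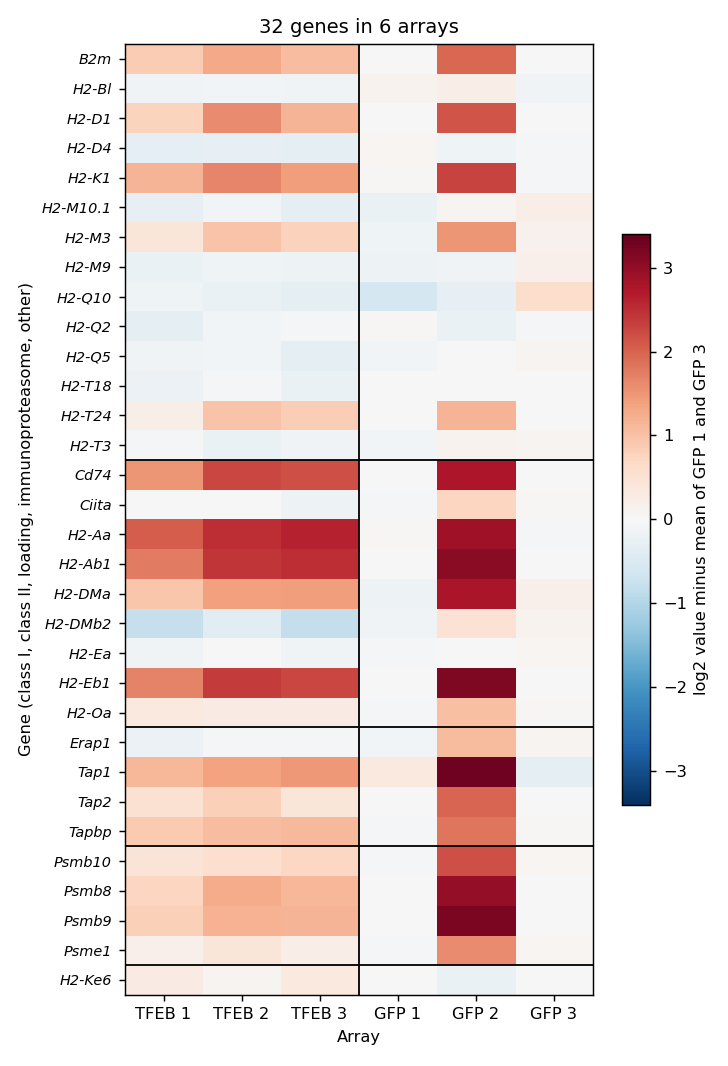
Each of the 32 genes (rows, by its probe set of highest mean, ordered as class I, class II, peptide loading, immunoproteasome and H2-Ke6) in the 6 arrays (columns, TFEB-labelled left and GFP-labelled right), as the log2 value minus the mean of GFP-labelled replicates 1 and 3. Cd74, H2-Aa, H2-Ab1, H2-DMa, H2-Eb1, Tap1, Psmb8 and Psmb9 were darkest in GFP-labelled replicate 2 with intermediate TFEB-labelled arrays, H2-Ea was level, H2-DMb2 was lowest in the TFEB-labelled arrays, and most class I genes other than B2m, H2-D1, H2-K1, H2-M3 and H2-T24 were near 0 in every array.

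Among the class II genes, H2-Aa and H2-Ab1, which encode the chains of the I-A molecule, were the members with the largest differences. H2-Aa had log2 values of 11.27, 11.70 and 11.81 in the TFEB-labelled arrays, against 9.24, 12.07 and 9.14 in GFP-labelled replicates 1, 2 and 3. The TFEB-labelled arrays were thus all higher than 2 of the controls and lower than the third. With all arrays the log2 fold change was 1.44 ± 0.75 (SE, adjusted p = 0.19), and without GFP-labelled replicate 2 it was 2.40 ± 0.16 (adjusted p = 0.00021), or 5.26-fold. H2-Ab1 read 10.23, 10.89 and 10.97 (TFEB-labelled), against 8.45, 11.52 and 8.47 (GFP-labelled), and its fold change was 1.22 ± 0.81 (adjusted p = 0.28) with all arrays and 2.24 ± 0.21 (adjusted p = 0.00048) without replicate 2. The second probe set of H2-Aa and the other probe sets of H2-Ab1 were called higher as well without replicate 2, at 2.08 ± 0.20 for H2-Aa and at 1.70 ± 0.22 for the middle one of H2-Ab1, and none of them with all arrays, where these were at 1.11 ± 0.76 and 0.66 ± 0.82.

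H2-Eb1, the beta chain of the I-E molecule, and Cd74, the invariant chain that fills the class II groove until the endosome is reached, showed the same order of arrays. H2-Eb1 read 10.09, 10.76 and 10.67 in the TFEB-labelled arrays, against 8.38, 11.56 and 8.41 in the GFP-labelled arrays. Cd74 read 10.58, 11.37 and 11.29 (TFEB-labelled), against 9.07, 11.84 and 9.11 (GFP-labelled). In both, TFEB-labelled replicate 1 was the lowest of its group. Their log2 fold changes were 1.06 ± 0.83 (adjusted p = 0.36) and 1.07 ± 0.74 (adjusted p = 0.30) with all arrays, and 2.11 ± 0.19 (adjusted p = 0.00043) and 1.99 ± 0.23 (adjusted p = 0.00087) without GFP-labelled replicate 2. The alpha chain gene H2-Ea, which mice of the H-2b haplotype such as C57BL/6 are known not to express, behaved differently. Its brightest probe set read 6.54, 6.66 and 6.54 in the TFEB-labelled arrays and 6.59, 6.63 and 6.72 in the GFP-labelled arrays, level across all 6.

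H2-DMa encodes a chain of the H2-DM molecule, which exchanges the remnant of the invariant chain for antigen peptides in the endosome. Its values were 7.23, 7.69 and 7.72 in the TFEB-labelled arrays, against 6.12, 9.07 and 6.47 in the GFP-labelled arrays, and GFP-labelled replicate 2 was further above the TFEB-labelled arrays here than for H2-Aa, by 1.52 compared with 0.48 over their mean. Its fold change was 0.33 ± 0.73 (adjusted p = 0.75) with all arrays and 1.25 ± 0.18 (adjusted p = 0.0020) without that array. H2-DMb2, a gene of the partner beta chain, was the only member called lower. It read 5.09, 5.50 and 5.09 (TFEB-labelled), against 5.75, 6.37 and 6.02 (GFP-labelled), so that the groups did not overlap, with a fold change of -0.82 ± 0.18 (adjusted p = 0.017) with all arrays and -0.66 ± 0.15 (adjusted p = 0.014) without GFP-labelled replicate 2. Its call was lost without GFP-labelled replicate 3 (adjusted p = 0.053), TFEB-labelled replicate 1 (0.056) or TFEB-labelled replicate 3 (0.065). A pair of probe sets annotated to both H2-DMb2 and its near copy H2-DMb1 had the other sign, at 0.74 ± 0.68 (adjusted p = 0.43) and 0.38 ± 0.71 (adjusted p = 0.71) with all arrays and at 1.60 ± 0.14 and 1.28 ± 0.17 without GFP-labelled replicate 2, where they were called higher, so the direction for H2-DMb2 is uncertain.

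Ciita, the coactivator on which class II transcription depends, was not called under either fit. Its brighter probe set read 5.63, 5.63 and 5.47 in the TFEB-labelled arrays, against 5.61, 6.38 and 5.69 in the GFP-labelled arrays, with a fold change of -0.32 ± 0.20 (adjusted p = 0.27) with all arrays and -0.07 ± 0.09 (adjusted p = 0.55) without GFP-labelled replicate 2. The TFEB-labelled arrays were level with GFP-labelled replicates 1 and 3, unlike those of the class II chains. Its dimmer probe set disagreed in this, with 5.51, 5.51 and 5.20 (TFEB-labelled) against 4.79, 6.68 and 5.00 (GFP-labelled), and reached 0.51 ± 0.13 (adjusted p = 0.017) without replicate 2, under the fold limit. H2-Oa, a chain of the H2-DO molecule that restrains H2-DM, was dim, at 4.71, 4.67 and 4.66 (TFEB-labelled) against 4.36, 5.40 and 4.42 (GFP-labelled). Its fold change of -0.05 ± 0.27 (adjusted p = 0.90) became 0.29 ± 0.08 (adjusted p = 0.025) without GFP-labelled replicate 2, under the fold limit.

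**Figure D2:**
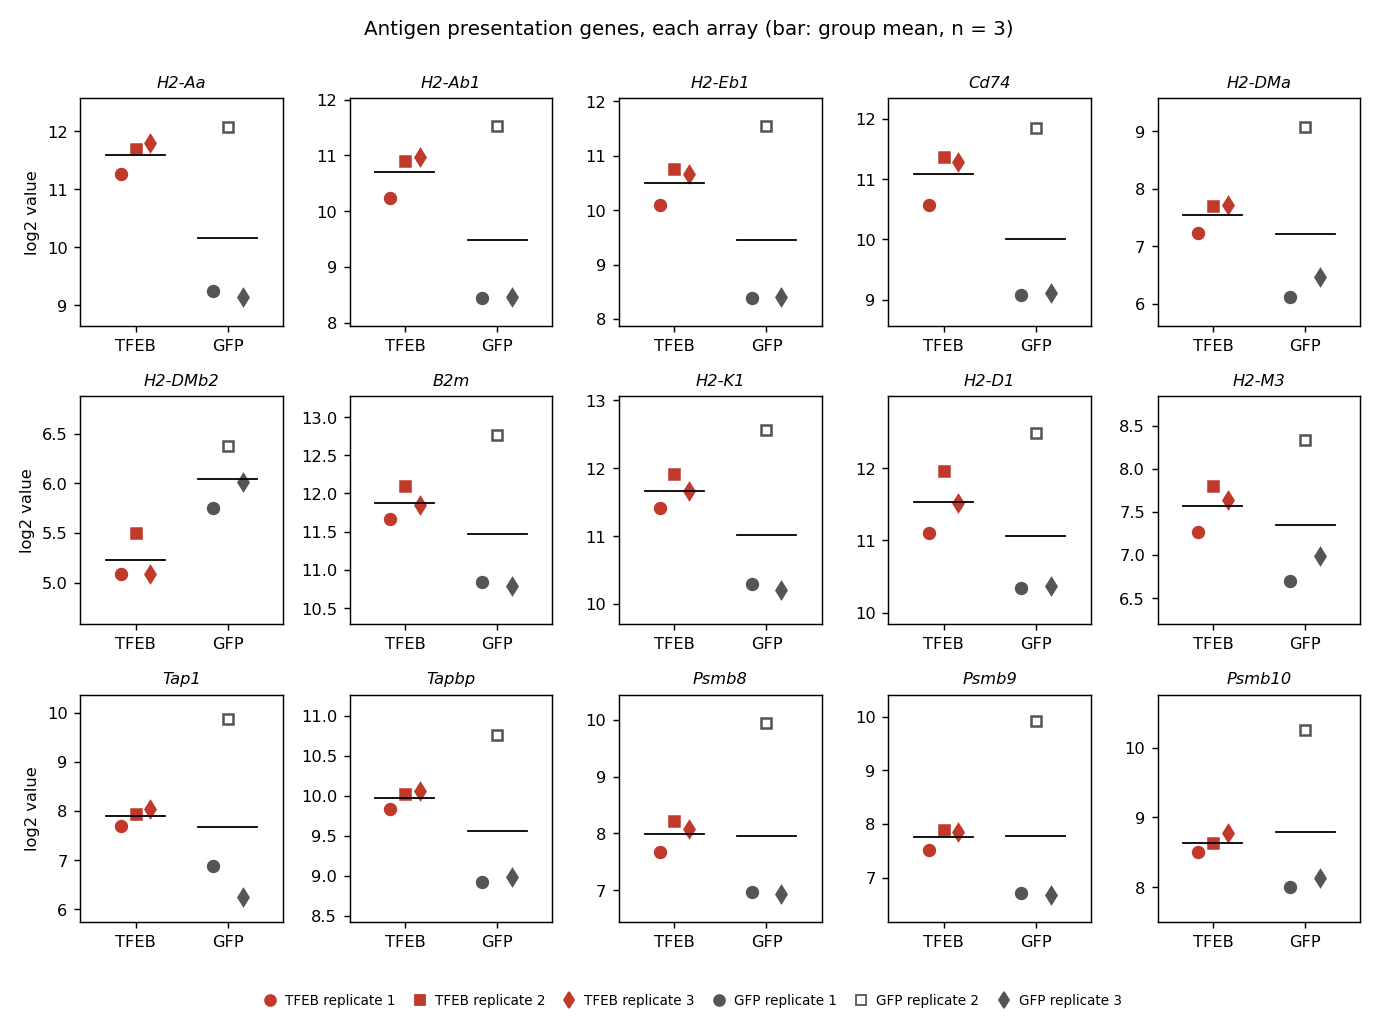
Log2 value (vertical axis, each panel on its own scale) of 15 member genes in each array, TFEB-labelled (red, left) and GFP-labelled (grey, right). Circles, squares and diamonds are replicates 1, 2 and 3, the open square is GFP-labelled replicate 2, and bars are group means (n = 3). The TFEB-labelled arrays lie between GFP-labelled replicate 2 and the other controls in every panel except H2-DMb2, where they lie below all 3 controls.

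The promoters of H2-Aa and H2-Eb1 are shown since these genes had the same order of arrays and are classically driven through X and Y boxes. The core of the Y box is ATTGG. The X2 part of the X box holds a cyclic AMP response core with the letters TGACG. The sequences, from 250 bases before to 50 after the annotated start (RefSeq, GRCm38.p6), lie at chr17:34287774-34288073 on the minus strand for H2-Aa and at chr17:34305617-34305916 on the plus strand for H2-Eb1. Capitals mark ATTGG and TGACG on either strand.
H2-Aa: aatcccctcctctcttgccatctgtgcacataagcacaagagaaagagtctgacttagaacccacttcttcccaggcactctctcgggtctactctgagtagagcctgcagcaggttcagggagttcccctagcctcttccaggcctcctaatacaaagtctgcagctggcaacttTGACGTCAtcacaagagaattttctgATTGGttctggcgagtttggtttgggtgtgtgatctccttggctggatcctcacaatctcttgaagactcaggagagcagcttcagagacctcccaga
H2-Eb1: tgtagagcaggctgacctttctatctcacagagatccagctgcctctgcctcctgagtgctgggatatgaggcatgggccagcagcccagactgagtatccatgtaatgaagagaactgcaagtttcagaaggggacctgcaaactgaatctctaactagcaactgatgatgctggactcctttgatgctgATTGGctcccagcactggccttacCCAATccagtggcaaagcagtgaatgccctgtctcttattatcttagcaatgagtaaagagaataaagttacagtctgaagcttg
In H2-Aa the overlapping TGACG matches of both strands began at -74 and -71 relative to the start and ATTGG at -48. In H2-Eb1 ATTGG began at -59 and its complement at -35, and no TGACG was in the window.

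Of the class I genes, 5 were called higher without GFP-labelled replicate 2 (10.7% of all probe sets). They included the classical heavy chains H2-K1 and H2-D1 and their shared light chain. B2m, which encodes that light chain, beta-2-microglobulin, read 11.67, 12.10 and 11.85 in the TFEB-labelled arrays, against 10.83, 12.77 and 10.79 in the GFP-labelled arrays. Its fold change was 0.41 ± 0.52 (adjusted p = 0.57) with all arrays and 1.06 ± 0.13 (adjusted p = 0.0012) without GFP-labelled replicate 2. H2-K1 read 11.42, 11.91 and 11.66 (TFEB-labelled), against 10.29, 12.56 and 10.21 (GFP-labelled), with 0.64 ± 0.61 (adjusted p = 0.44) and 1.41 ± 0.14 (adjusted p = 0.00060) for the same fits, the largest difference of the class. The groups overlapped in both genes through GFP-labelled replicate 2 alone.

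H2-D1 was read by 9 probe sets that differ in level and size of difference. The brightest gave 11.10, 11.96 and 11.52 in the TFEB-labelled arrays, against 10.35, 12.49 and 10.37 in the GFP-labelled arrays, with a fold change of 0.46 ± 0.58 (adjusted p = 0.57) with all arrays and 1.17 ± 0.22 (adjusted p = 0.0064) without GFP-labelled replicate 2. Over the 9 probe sets the fit without that array gave -0.04 to 1.17, and 4 were called higher. Class I heavy chain genes are close copies of each other, and many of these probe sets are of the types (x_at and s_at) whose probes match several transcripts, so the split of the signal among H2-K1, H2-D1 and related genes is uncertain. H2-M3, a nonclassical heavy chain that presents formylated bacterial peptides, read 7.27, 7.80 and 7.63 (TFEB-labelled), against 6.70, 8.34 and 6.99 (GFP-labelled), at 0.22 ± 0.41 (adjusted p = 0.70) and 0.72 ± 0.17 (adjusted p = 0.015) for the same fits. H2-T24, another nonclassical gene, was dim at 4.15, 4.91 and 4.79 (TFEB-labelled) against 3.97, 5.09 and 3.93 (GFP-labelled), with 0.29 ± 0.35 (adjusted p = 0.56) and 0.67 ± 0.22 (adjusted p = 0.046).

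The other 9 class I genes, H2-Bl, H2-D4, H2-M10.1, H2-M9, H2-Q10, H2-Q2, H2-Q5, H2-T18 and H2-T3, gave array values between 2.40 and 6.23 and were not called under either fit. Their log2 fold changes ran from -0.27 to -0.10 with all arrays and from -0.30 to -0.11 without GFP-labelled replicate 2, and that array lay between 0.27 below and 0.23 above the mean of replicates 1 and 3. H2-D4 reached an adjusted p of 0.046 at -0.26 ± 0.08, under the fold limit. Of the 15 probe sets with several symbols, which mostly read H2-Q and H2-T genes, 0 were called with all arrays. Over all probe sets 7.51% were called higher and 6.11% lower. In the fit without GFP-labelled replicate 2, 8 of the 15 were called higher (10.7% of all probe sets), by 1.16 to 2.16 on the log2 scale.

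The promoter of B2m is shown for the motif through which interferon regulatory factors act, the interferon-stimulated response element core GAAANNGAA. It lies at chr2:122147437-122147736 on the plus strand (RefSeq, GRCm38.p6), and capitals mark GAAANNGAA, ATTGG and TGACG on either strand.
B2m: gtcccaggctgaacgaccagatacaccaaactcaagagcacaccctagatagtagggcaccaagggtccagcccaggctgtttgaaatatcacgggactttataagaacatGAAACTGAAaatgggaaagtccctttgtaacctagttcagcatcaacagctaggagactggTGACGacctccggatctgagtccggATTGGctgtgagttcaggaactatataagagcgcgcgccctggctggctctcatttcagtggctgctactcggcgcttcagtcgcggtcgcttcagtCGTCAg
GAAANNGAA began at -139 relative to the start, TGACG at -78 and ATTGG at -53, and a TGACG of the other strand began at 44 after the start.

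**Figure D3:**
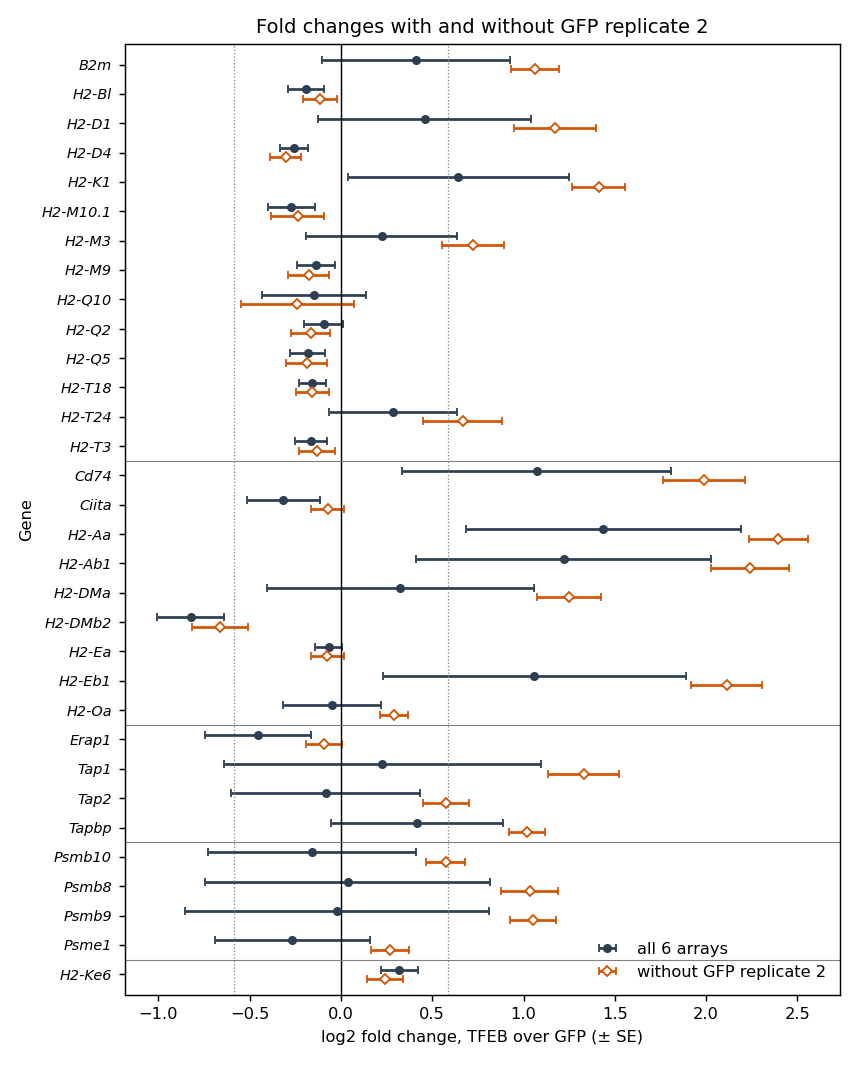
Log2 fold change, TFEB-labelled over GFP-labelled (horizontal axis), with its SE (bars) for each of the 32 genes (rows), fitted with all 6 arrays (dark circles) and without GFP-labelled replicate 2 (open orange diamonds). Dotted lines mark the 1.5-fold limit in each direction. Without that array the estimates of Cd74, H2-Aa, H2-Ab1, H2-DMa, H2-Eb1 and all 8 loading and immunoproteasome genes moved to the right and their bars became shorter, whereas H2-Ea and the 9 uncalled class I genes stayed near 0.

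Of the peptide loading genes, Tap2 and the brightest probe sets of Tap1 and Tapbp had TFEB-labelled arrays between GFP-labelled replicate 2 above and GFP-labelled replicates 1 and 3 below, as the classical class I genes did. Erap1 did not. Tap1, a subunit of the peptide transporter, read 7.70, 7.94 and 8.04 in the TFEB-labelled arrays, against 6.88, 9.87 and 6.24 in the GFP-labelled arrays. Its fold change was 0.23 ± 0.87 (adjusted p = 0.86) with all arrays and 1.33 ± 0.19 (adjusted p = 0.0022) without GFP-labelled replicate 2. Its 3 dimmer probe sets had the other sign and were not called, at -0.35, -0.13 and -0.16 with all arrays and -0.23, -0.13 and -0.13 without that array. The brightest of these 3 read 5.29, 5.39 and 4.95 (TFEB-labelled), below all controls at 5.47, 5.78 and 5.42 (GFP-labelled). Tap2, the partner subunit, read 6.95, 7.24 and 6.85 (TFEB-labelled), against 6.46, 8.41 and 6.42 (GFP-labelled). It was at -0.08 ± 0.52 (adjusted p = 0.91) and at 0.57 ± 0.13 (adjusted p = 0.011), just under the fold limit, for the same fits.

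Tapbp, or tapasin, which bridges TAP and the class I molecule, read 9.84, 10.02 and 10.07 (TFEB-labelled), against 8.93, 10.76 and 8.99 (GFP-labelled). The fold change was 0.42 ± 0.47 (adjusted p = 0.52) with all arrays and 1.02 ± 0.10 (adjusted p = 0.00048) without GFP-labelled replicate 2. Its dimmer probe set disagreed, with 7.72, 8.22 and 7.84 (TFEB-labelled) against 7.85, 9.35 and 7.97 (GFP-labelled), and gave 0.02 ± 0.15 (adjusted p = 0.93) without that array. Erap1, the aminopeptidase that trims peptides in the endoplasmic reticulum, read 6.55, 6.68 and 6.70 (TFEB-labelled), against 6.64, 7.82 and 6.84 (GFP-labelled). Judged by the brightest probe set of each gene, it was the only loading gene whose TFEB-labelled arrays were not above GFP-labelled replicates 1 and 3. Its fold change was -0.46 ± 0.29 (adjusted p = 0.27) and -0.09 ± 0.10 (adjusted p = 0.48) with and without replicate 2.

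Among the 4 groups of genes, the immunoproteasome had the largest median distance of GFP-labelled replicate 2 above the TFEB-labelled arrays. Psmb8, a catalytic subunit also called LMP7, read 7.67, 8.21 and 8.08 in the TFEB-labelled arrays, against 6.97, 9.94 and 6.94 in the GFP-labelled arrays. Psmb9, or LMP2, read 7.51, 7.88 and 7.85 (TFEB-labelled), against 6.72, 9.91 and 6.68 (GFP-labelled). For both, the 2 group means were nearly equal with all arrays, at fold changes of 0.04 ± 0.78 (adjusted p = 0.98) and -0.02 ± 0.83 (adjusted p = 0.99), since a single control array stood 2.99 and 3.21 above the others. Without it the fold changes were 1.03 ± 0.16 (adjusted p = 0.0026) and 1.05 ± 0.13 (adjusted p = 0.0011), or 2.05-fold and 2.07-fold.

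Psmb10, the third inducible subunit, read 8.50, 8.64 and 8.78 (TFEB-labelled), against 8.0, 10.26 and 8.13 (GFP-labelled), and gave -0.16 ± 0.57 (adjusted p = 0.85) with all arrays and 0.57 ± 0.11 (adjusted p = 0.0058) without GFP-labelled replicate 2, just under the fold limit. Psme1, a subunit of the PA28 activator that caps the proteasome, read 9.70, 9.95 and 9.76 (TFEB-labelled), against 9.47, 11.15 and 9.60 (GFP-labelled), and was not called under either fit, at -0.27 ± 0.42 (adjusted p = 0.65) and 0.27 ± 0.10 (adjusted p = 0.079). In these genes the TFEB-labelled arrays were above GFP-labelled replicates 1 and 3 by less than replicate 2 was. The standard counterparts of the catalytic subunits, named after their values were seen, did not share this order. Psmb5 read 11.55, 11.47 and 11.61 in the TFEB-labelled arrays, against 11.19, 11.11 and 11.20 in the GFP-labelled arrays, with no high value in GFP-labelled replicate 2, and its fold change was 0.38 ± 0.07 (adjusted p = 0.0096) with all arrays and 0.35 ± 0.08 (adjusted p = 0.016) without that array, under the fold limit. With all arrays Psmb6 was at 0.07 ± 0.07 (adjusted p = 0.45) and Psmb7 at -0.25 ± 0.07 (adjusted p = 0.034), and without GFP-labelled replicate 2 they were at 0.05 ± 0.08 (adjusted p = 0.66) and -0.28 ± 0.08 (adjusted p = 0.029).

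Tap1 and Psmb9 are neighbours transcribed in opposite directions, and their promoter windows overlap, at chr17:34187306-34187605 on the plus strand for Tap1 and chr17:34187281-34187580 on the minus strand for Psmb9 (RefSeq, GRCm38.p6). The window of Tap1 is shown since it covers most of that of Psmb9, a member with the same order of arrays. Capitals mark ATTGG and TGACG on either strand.
Tap1: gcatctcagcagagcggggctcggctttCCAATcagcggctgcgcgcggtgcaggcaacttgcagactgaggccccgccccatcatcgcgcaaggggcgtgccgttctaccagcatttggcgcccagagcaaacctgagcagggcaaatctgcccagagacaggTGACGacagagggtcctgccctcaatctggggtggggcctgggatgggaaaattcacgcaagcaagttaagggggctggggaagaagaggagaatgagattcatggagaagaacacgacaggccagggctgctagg
The complement of ATTGG began at -222 relative to the Tap1 start and TGACG at -86.

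Promoter windows of the same length were given for 22 of the 32 genes and compared with all 32851 windows of the table. ATTGG was found in 16 of the 22 on either strand, where 37.4% of all windows held it, and TGACG in 8 of the 22, where 20.8% did. GAAANNGAA was found in B2m, Erap1 and Psme1 (8.56% of all windows) and the gamma-activated site TTCNNNGAA in H2-DMb2, H2-M3 and Psmb8 (8.30% of all windows). CACGTG, the core of the TFEB motif, was found in Erap1 and Psmb10 (7.15% of all windows). The longer TCACGTGA was found in 0 of the 22 (0.974% of all windows). Genes with several windows were counted if any of these held the motif. A match is a run of letters and not evidence of binding.

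The classes differed in how far the TFEB-labelled arrays and GFP-labelled replicate 2 lay from the low controls. The median log2 fold change over the genes of class II was 0.33 with all arrays and 1.25 without GFP-labelled replicate 2, and over class I genes it was -0.14 under both. The medians over all probe sets tested were -0.06 and -0.07. The class I median was set by dim genes, of which 8 of 14 averaged under 5. Over the 6 class I genes with a mean of at least 5 it was 0.32 with all arrays and 0.89 without GFP-labelled replicate 2, and over the 8 such genes of class II it was 0.69 and 1.62. The medians were 0.07 and 0.80 for peptide loading and -0.09 and 0.80 for the immunoproteasome.

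The groups of genes had another order by how far GFP-labelled replicate 2 exceeded the mean of the TFEB-labelled arrays. The median excess was 1.79 for the immunoproteasome, 1.29 for peptide loading, 0.80 for class II and 0.29 for class I. GFP-labelled replicate 2 lay above all 3 TFEB-labelled arrays for 28 of the 32 genes, but how often it did so over all probe sets was not counted. The 28 include dim genes such as H2-D4, H2-Q5 and H2-T18, where that array was not above the mean of replicates 1 and 3. It was the highest of the 6 arrays for 23 of the 32 genes, compared with 13.1% of all probe sets. Relative to GFP-labelled replicates 1 and 3 the mean of the class II genes was 0.82, 1.21 and 1.13 higher in the TFEB-labelled arrays and 1.87 higher in GFP-labelled replicate 2, whereas the mean of the immunoproteasome genes was 0.54, 0.86 and 0.80 higher in the TFEB-labelled arrays and 2.50 higher in that array. Within the TFEB-labelled group, replicate 1 was the lowest for 22 of the 32 genes, 6 of the 9 of class II among them. How often it was the lowest over all probe sets was not counted.

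**Figure D4:**
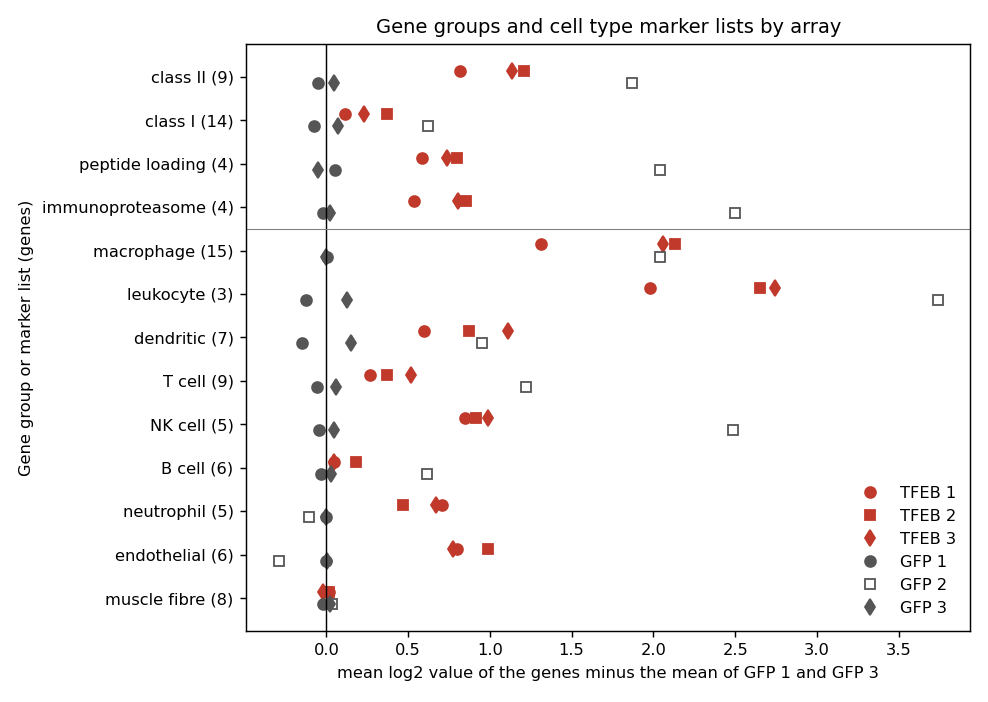
Mean log2 value of each gene group or cell type marker list (rows, number of genes in parentheses) in each array, minus the mean of GFP-labelled replicates 1 and 3 (horizontal axis). TFEB-labelled arrays are red, GFP-labelled arrays grey, and the open square is GFP-labelled replicate 2. For the 4 groups of members and the leukocyte, T cell, NK cell and B cell lists the open square lies furthest to the right, for macrophage and dendritic lists it lies among the TFEB-labelled arrays, and for endothelial and neutrophil lists it lies to the left of 0.

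Of the immune cell lists, the macrophage and general leukocyte markers were called higher nearly as a whole without GFP-labelled replicate 2, and the others in part or not. Of 15 macrophage markers, 14 were called higher without GFP-labelled replicate 2 (10.7% of all probe sets). Only Cd68, a lysosomal glycoprotein of macrophages, was called with all arrays (7.51% of all probe sets higher). GFP-labelled replicate 2 was the highest array for 5 of the 15, compared with 23 of the 32 member genes. Their mean log2 level was 8.16 to 8.98 in the TFEB-labelled arrays and 6.84 to 8.89 in the GFP-labelled arrays, and relative to GFP-labelled replicates 1 and 3 it was 1.31, 2.13 and 2.06 higher in the TFEB-labelled arrays and 2.04 higher in GFP-labelled replicate 2. TFEB-labelled replicate 1 was the lowest of its group for this list, and also for the leukocyte, dendritic, T cell and NK cell lists. The part of the macrophage markers in the class II values was not tested.

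The lymphocyte lists differed from this in GFP-labelled replicate 2. The 5 NK cell markers were 0.85, 0.91 and 0.99 above GFP-labelled replicates 1 and 3 in the TFEB-labelled arrays and 2.48 above in GFP-labelled replicate 2, with mean levels of 5.18 to 5.32 in the TFEB-labelled group and 4.28 to 6.81 in the GFP-labelled group. The 9 T cell markers were 0.27, 0.37 and 0.52 above in the TFEB-labelled arrays and 1.22 above in that array, with mean levels of 5.53 to 5.78 (TFEB-labelled) and 5.20 to 6.48 (GFP-labelled). The 6 B cell markers were 0.05, 0.18 and 0.05 above in the TFEB-labelled arrays and 0.62 above in that array, with mean levels of 4.65 to 4.79 (TFEB-labelled) and 4.58 to 5.22 (GFP-labelled), near the dim end of the scale. By their means, the NK and T cell lists therefore had the order of arrays seen for the 4 groups of members. That order was not particular to any of these groups. In the B cell list the TFEB-labelled arrays were nearly level with GFP-labelled replicates 1 and 3. Its median log2 fold change without GFP-labelled replicate 2 was -0.05. The part of these cells in the order was not tested. The 3 general leukocyte markers were 1.98, 2.65 and 2.74 above in the TFEB-labelled arrays and 3.74 above in GFP-labelled replicate 2, with mean levels of 8.37 to 9.13 (TFEB-labelled) and 6.27 to 10.1 (GFP-labelled). With all arrays, no marker of these 4 lists was called. Without GFP-labelled replicate 2, 3 of 5 NK cell, 3 of 9 T cell, 0 of 6 B cell and 3 of 3 leukocyte markers were called higher (10.7% of all probe sets).

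The mean of the 7 dendritic cell markers was 0.60, 0.87 and 1.11 above GFP-labelled replicates 1 and 3 in the TFEB-labelled arrays and 0.95 above in GFP-labelled replicate 2. The mean levels were 5.74 to 6.26 (TFEB-labelled) and 4.99 to 6.10 (GFP-labelled). The list was split. Without GFP-labelled replicate 2, 4 markers were called higher (10.7% of all probe sets), Itgax, Cd83, Ccr7 and Zbtb46. Zbtb46 was not high in that array and was the only one also called with all arrays (limma, 1.07 ± 0.13, adjusted p = 0.0024). Flt3, Xcr1 and Cd209a were at 0.24, -0.06 and -0.13 and were not called. The 6 endothelial markers were called higher in 4 cases with all arrays (7.51% of all probe sets). Their mean was 0.80, 0.99 and 0.78 above in the TFEB-labelled arrays and 0.29 below in GFP-labelled replicate 2. The mean of the 5 neutrophil markers was 0.71, 0.47 and 0.67 above in the TFEB-labelled arrays and 0.11 below in GFP-labelled replicate 2, but their median log2 fold change was -0.07, and the mean was carried by the calprotectin gene S100a8 (3.25 ± 0.22, adjusted p = 0.00049). S100a9, its partner, was called at 0.60 ± 0.11 with all arrays and lost its call without GFP-labelled replicate 2 (0.52 ± 0.10), while Mpo, Elane and Camp were at -0.16, -0.07 and -0.37 and were not called. The endothelial and neutrophil lists did not share the high level of GFP-labelled replicate 2.

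Genes that work beside the members were described from a list of 50 symbols, of which 43 were measured. With all arrays 5 were called higher (11.6%, against 7.51% of all probe sets) and 3 lower (6.98%, against 6.11%). Without GFP-labelled replicate 2, 15 were higher (34.9%, against 10.7%) and 4 lower (9.30%, against 7.93%). With all arrays both shares were near those over all probe sets. Ifi30, the lysosomal thiol reductase GILT, read 10.03, 9.97 and 10.42 in the TFEB-labelled arrays, against 7.10, 9.63 and 7.19 in the GFP-labelled arrays, so that even GFP-labelled replicate 2 lay below them, and its fold change was 2.17 ± 0.65 (adjusted p = 0.043). Lgmn, the asparaginyl endopeptidase legumain, read 9.07, 9.51 and 9.66 (TFEB-labelled), against 7.42, 8.63 and 7.54 (GFP-labelled), at 1.55 ± 0.33 (adjusted p = 0.014).

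The cathepsin genes Ctsb and Ctsl were higher by 0.96 ± 0.17 (adjusted p = 0.0078) and 0.62 ± 0.10 (adjusted p = 0.0046), and Sec61a1, a subunit of the translocon, by 0.83 ± 0.13 (adjusted p = 0.0049). Lower with all arrays were Jak2, a kinase of interferon gamma signalling, at -1.40 ± 0.07 (adjusted p = 0.00026), Mr1, a class I-like gene that presents vitamin B metabolites, at -1.39 ± 0.14 (adjusted p = 0.0014), and Rfxank, a subunit of the RFX factor that binds the X box, at -0.63 ± 0.11 (adjusted p = 0.0080). In all of these the groups did not overlap. Without GFP-labelled replicate 2 these 8 genes kept their direction and their call, and Ifi30 reached 2.99 ± 0.14 (adjusted p = 9.3e-05), or 7.97-fold compared with 4.49-fold with all arrays. The cathepsin genes Ctsd and Ctss of the same list were not called with all arrays. Ctsd was at 0.44 ± 0.07 (adjusted p = 0.0050), under the fold limit, and Ctss at 2.03 ± 0.98 (adjusted p = 0.15), and without GFP-labelled replicate 2 they were at 0.46 ± 0.08 (adjusted p = 0.0050) and 3.25 ± 0.29 (adjusted p = 0.00041).

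Some neighbours, named after their values were seen, were high in GFP-labelled replicate 2, Ifng and Tapbpl in that array alone. Ifng, the cytokine that induces class I, class II and immunoproteasome genes, read 3.27, 3.27 and 3.20 in the TFEB-labelled arrays, against 3.27, 5.96 and 3.47 in the GFP-labelled arrays, so all arrays but that one were at the dim end of the scale. Tapbpl, a tapasin-related peptide editor, read 6.69, 6.78 and 6.60 (TFEB-labelled), against 6.62, 9.03 and 6.60 (GFP-labelled). In both, the TFEB-labelled arrays were near GFP-labelled replicates 1 and 3. Irf1, a transcription factor of the interferon response, read 8.88, 8.77 and 8.99 (TFEB-labelled), against 8.05, 10.64 and 7.88 (GFP-labelled), and Irf8, a factor of myeloid cells, 7.60, 7.67 and 8.10 (TFEB-labelled), against 6.23, 9.27 and 6.10 (GFP-labelled). Irf1 and Irf8 had the intermediate TFEB-labelled values of the members. Ctss, the protease that degrades the invariant chain, read 10.40, 11.33 and 11.42 (TFEB-labelled), against 7.67, 11.45 and 7.92 (GFP-labelled). Its TFEB-labelled replicates 2 and 3 were thus about as high as GFP-labelled replicate 2. The part of these genes in the members' values was not tested.

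**Figure D5:**
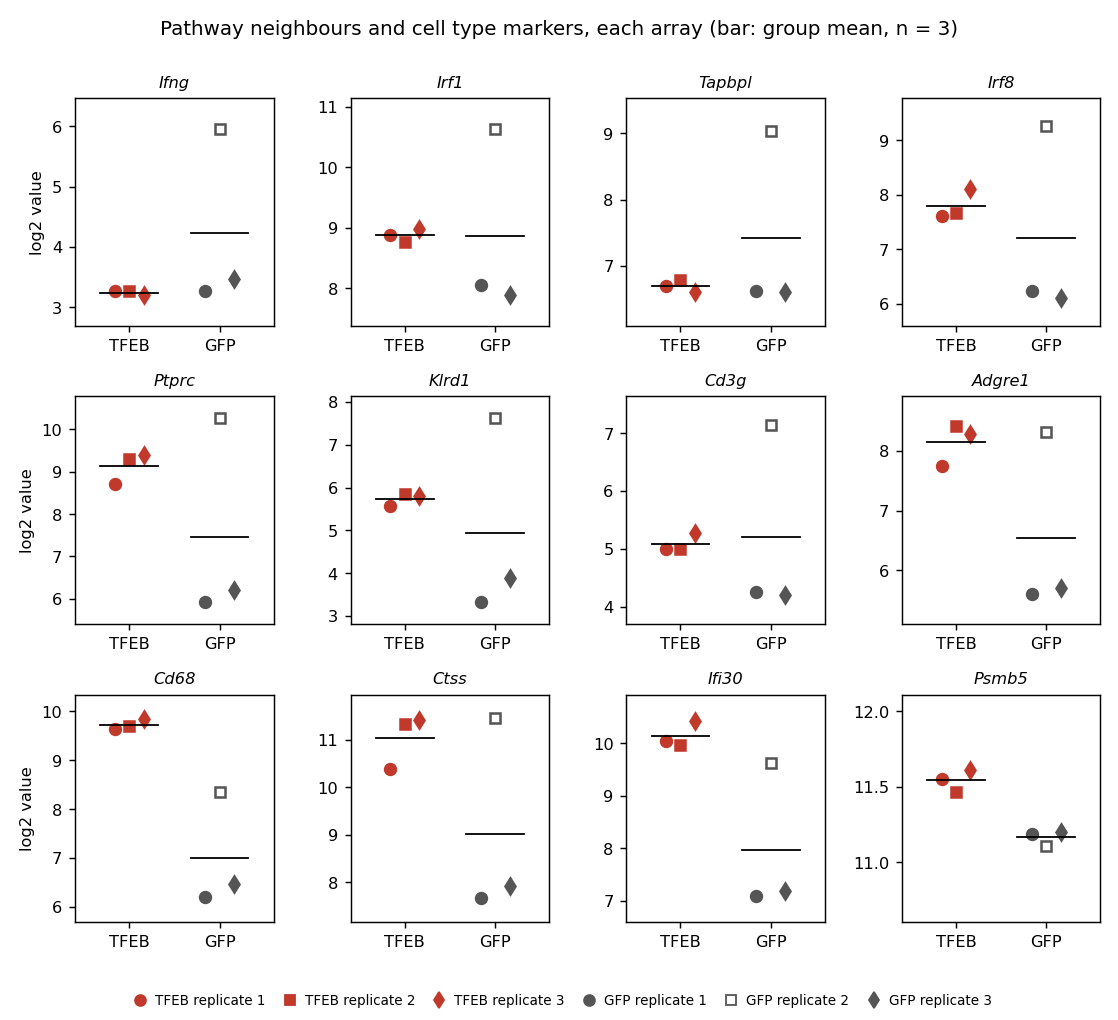
Log2 value (vertical axis, each panel on its own scale) of 12 pathway neighbours and cell type markers in each array, TFEB-labelled (red, left) and GFP-labelled (grey, right), with symbols as for the members and bars for group means (n = 3). Ifng and Tapbpl were high in GFP-labelled replicate 2 only, Ctss and Adgre1 were about equally high in that array and the TFEB-labelled arrays, and Cd68 and Ifi30 were highest in the TFEB-labelled arrays.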

How the data were processed

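The deposited values are log2 expression values, 1 per probe set and array, which the authors made by RMA in affy per the labels, versions not stated. RMA corrects background, applies quantile normalization across arrays and summarizes probes. Precision is limited by the number of arrays.

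Of 22690 probe sets, 64 Affymetrix controls were left out. Platform annotation gave 1 symbol to 20380 of the other 22626, several to 691 and none to 1555, and all 32 member genes matched RefSeq. Each gene stands by its probe set of highest mean. A 2-group model was fitted by limma 3.58.1 under R 4.3.3 (lmFit, eBayes, two-sided, Benjamini-Hochberg adjustment over 22626 probe sets) and called at an adjusted p under 0.05 and 1.5-fold. The array methods were not among the sources used here. The members, lists and tests were chosen with earlier results of these data known. The lists are textbook markers and pathway neighbours. Named neighbours are those called with all arrays, unless stated. The fit was tested on simulated arrays drawn independently with no outlying array, so that test does not bear on GFP-labelled replicate 2. Replicate numbers are shared by the groups, but nothing in the labels says that they pair mice.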

Additional observations from a re-analysis of the deposited data

How the results depend on the processing

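With all arrays, 0 members were called higher, and the counts depended on GFP-labelled replicate 2. Leaving out each array in turn gave 0 to 23 of 55 members called higher, the upper end without that array. They were 0 to 11 of 27 in class I, 0 to 8 of 15 in class II and 0 to 4 of 12 in loading and immunoproteasome. Over all 22626 probe sets the same fits called 1309 to 2428 higher, the upper end again without that array. limma array weights gave 4 of 55 members higher, all 4 of class II, and 2144 of all 22626 probe sets. The share of members was thus not above that of all probe sets. 1 or 0 members were called lower when arrays were left out, 2 with no fold limit and 0 by the two-tailed t-test. Over all probe sets, 1120 to 1794 were called lower when arrays were left out and 1082 by the t-test. The class I median was 0.32 with dim probe sets left out, and the class II median ran from -0.10 to 1.25 over arrays left out.

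The direction of 11 genes turned under some setting. Array weights gave 0.16 for H2-Oa, 0.34 for Tap2, 0.30 for Psmb10, 0.67 for Psmb9 and 0.073 for Psme1. Repeated quantile normalization gave 0.0077 for H2-Oa and -0.013 for Psmb8, equal medians -0.032 for Psmb8, and fast fibre scaling 0.015 for Psmb9. The mean of a gene's probe sets gave -0.10 for Tap1 and -0.022 for Tapbp. Over arrays left out the log2 fold change ran from -0.10 to 0.72 for H2-M3, -0.40 to 0.20 for H2-Q10, -0.22 to 1.25 for H2-DMa, -0.23 to 0.29 for H2-Oa, -0.48 to 1.33 for Tap1, -0.42 to 0.57 for Tap2, -0.55 to 0.57 for Psmb10, -0.47 to 1.03 for Psmb8, -0.57 to 1.05 for Psmb9 and -0.57 to 0.27 for Psme1. The cause was not tested.

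With the replicate number in the model (replicate block), 0 members were called higher and 1 lower, and over all probe sets 1686 and 1366, against 1700 and 1382 without it. The deviations of same-numbered arrays correlated at 0.42, 0.17 and -0.23, so the numbers were not taken as pairs, and the block changed no member's call. Signal against background was not tested.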
